A study of Nicotiana tabacum with 15 samples.

Results

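The genes described here are the 150 gene models of the tobacco root whose expression in 2 F1 hybrids lay farthest above that of all their parents. They were selected on measured values. For every gene, the highest of the 9 parental libraries was subtracted from the lowest of the 6 hybrid libraries on the scale log2(FPKM + 1), and the 150 genes with the largest difference, called the score below, were taken from the 69500 gene models in the table. FPKM is a fragment count scaled to the length of the gene and to the number of mapped fragments in the library. The hybrid against parent values of these genes therefore repeat the choice and are given as a description, without a test.

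Root RNA of Nicotiana tabacum seedlings was sequenced in 5 genotypes with 3 libraries each, to ask how gene expression in hybrids with strong root heterosis departs from that of their parents. The female parents were the cultivars G70 (G) and K326 (K), the male parent of both crosses was Jiucaiping No.2 (J, also written JCP), and the hybrids were G70×JCP (GJ) and K326×JCP (KJ). All 5 genotypes were young seedlings raised by the floating method, and the labels name no treatment and no introduced allele. The labels give young root as the tissue while the titles of the libraries name leaf, and the study's methods give root. No table used here pairs these gene IDs with markers of a tissue or cell type, so the tissue could not be checked on marker genes. The methods mention 3 seedlings taken for root measurements and frozen material for sequencing, but they do not tie a library to a seedling or a pool, so a p-value reflects only how far these libraries spread, which may be technical.

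An F1 hybrid that outgrows or outyields the lines it was bred from is said to show heterosis. A gene that a hybrid expresses above both parents is said to show up-regulated overdominant expression, in contrast to additive expression, which lies midway, and dominant expression, which equals that of a single parent. Such genes are studied in hybrids because neither parent shows their level. Among the genes described here, those with an annotation from the study belong to salicylic acid, abscisic acid and cytokinin signalling and to cell differentiation. PR-1 proteins are secreted pathogenesis-related proteins whose genes are used as markers of salicylic acid responses. Group A PP2C phosphatases and SnRK2 kinases are consecutive steps of abscisic acid signalling, in which the phosphatase holds the kinase inactive until the hormone is bound by its receptor. Type A response regulators (A-ARR) are induced by cytokinin and dampen its signalling.

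Summed over all gene models, the FPKM ranged from 801594 to 827438 per library, and the read count behind a value is unknown. The first principal component of log2(FPKM + 1) held 41.0% of the variance. The hybrid libraries lay between 22.9 and 95.6 on it and the parental libraries between -82.8 and 2.35. Within the parents, G replicate 1 at -82.8, J replicate 2 at -57.7 and K replicate 2 at -76.6 were the lowest of their genotype. When these 3 libraries were left out of the choice, 125 of the 150 genes were chosen again. The largest loss among the single libraries came with KJ replicate 1, without which 102 genes were chosen again, followed by K replicate 3, without which 107 were. In bulk root tissue, a change in the share of a cell type cannot be told apart from a change in RNA per cell.

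Across all genes, all 6 hybrid libraries lay above all 9 parental libraries for 1001 of the 37232 genes that reached 1 FPKM in at least 3 libraries, which is 2.69%, and below them for 2876. Of the 150 members, 148 passed this filter on low values, 112 of them on parental libraries alone and the others only with the help of hybrid libraries. The score was 4.13 for the first gene, 2.50 for the second, 1.38 for the tenth and 0.39 for the last, with a median of 0.58, and it was at least 1 in 15 genes. For the 146 genes above 0 in a parental library, the lowest hybrid FPKM was 1.31 to 44.0 times the highest parental FPKM, with a median of 1.65 times, and it was at least 2 times as high in 37. The lower limit of the choice fell in a dense part of the distribution. The last genes inside, Nitab4.5_0005381g0030 and Nitab4.5_0000006g0110, had a score of 0.39, as had the first genes outside, Nitab4.5_0005609g0010 and Nitab4.5_0002314g0010. In Nitab4.5_0000006g0110 the parental libraries ran from 32.4 to 67.0 FPKM and the hybrid libraries from 87.9 to 185.6 FPKM, whereas in Nitab4.5_0002314g0010 they ran from 0.85 to 2.04 and from 2.97 to 4.72 FPKM.

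**Figure D1:**
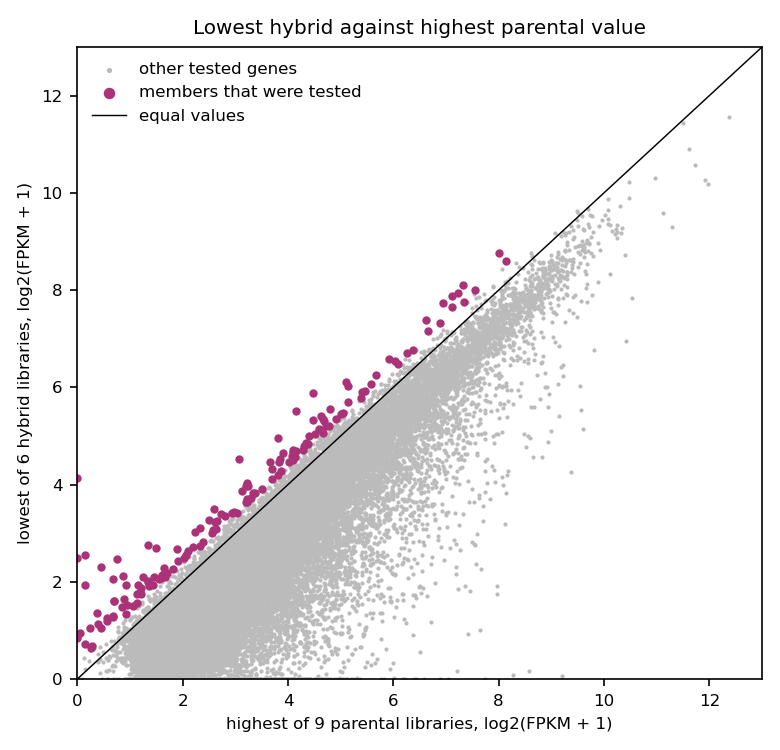
Each point is a gene that passed the filter on low values, with the highest of its 9 parental libraries on the x axis and the lowest of its 6 hybrid libraries on the y axis, both in log2(FPKM + 1). The line marks equal values. The 148 tested members (dark points) lie along the upper edge, and in 18 members the highest parental library reached 50 FPKM or more. The member farthest above the line has a score of 4.13 with no parental expression listed.

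The median FPKM of a member over the hybrid libraries ran from 0.72 to 673, with a median of 16.6, against a median of 3.97 and a maximum of 211.1 over the parental libraries. At least 50 FPKM was reached by 34 members, 10 to 50 by 62, 1 to 10 by 52 and less than 1 by 2. In the whole table, 8.58% of the tested genes had a median of at least 50 FPKM over the 15 libraries. This is not the same measure as the hybrid median of the members, which were chosen to be high in the hybrids. The ratio of the hybrid to the parental median is tied to the parental level by the choice, since a score on log2(FPKM + 1) asks for a larger ratio where the parents are low. The highest parental library was under 1 FPKM in 31 members, of which 23 had a parental median above 0, and in these 23 the ratio was 18.4 at the median. It was 4.49 for the 56 at 1 to 10 FPKM, 3.38 for the 45 at 10 to 50 FPKM and 2.53 for the 18 at 50 FPKM or more. In sum, the members made up 0.204% to 0.387% of all FPKM in the parental libraries and 0.818% to 1.08% in the hybrid libraries. The sums were 2016, 1674 and 2781 FPKM in G, 2031, 2514 and 2134 in J and 3198, 2211 and 3085 in K. They were 8824, 7362 and 7396 FPKM in GJ and 6557, 7750 and 8832 in KJ. The parental and the hybrid sums do not overlap, as the choice of the members requires of every single gene.

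The 4 hybrid against parent comparisons that the choice used are given for completeness. The limits used for calls elsewhere are a Benjamini-Hochberg adjusted p of 0.05 and a log2 fold change of 1 in limma, a linear model fit of all genes. In GJ, 140 of the 148 tested members lay beyond them over G, against 2.39% of all tested genes, and 136 over J, against 1.96%. In KJ, 131 lay beyond them over K, against 3.19%, and 142 over J, against 4.80%. These counts follow from the choice and are no test of the members. The median log2 fold change of the members was 1.78 for GJ over G, 1.73 for GJ over J, 1.55 for KJ over K and 1.81 for KJ over J, and that of all tested genes lay between -0.26 and -0.06. J is a parent of both hybrids, so these comparisons share libraries, and the fold changes of members listed at 0 in the parents depend on the added 1.

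The gene at the head of the list was Nitab4.5_0005251g0020, which the study does not annotate. It was listed at 0 in all 9 parental libraries. It was present at 52.9, 53.8 and 65.9 FPKM in GJ and at 24.1, 21.9 and 16.5 FPKM in KJ. Both hybrids therefore expressed a gene that no parental library showed, and all GJ libraries lay above all KJ libraries. In addition, 3 members were listed at 0 in every parental library, out of 8 such genes in the table that were above 0 in every hybrid library. Nitab4.5_0008647g0010 was at 10.6, 8.90 and 10.8 FPKM in GJ and at 5.10, 5.88 and 4.64 FPKM in KJ. Nitab4.5_0000519g0310 was at 3.90, 4.52 and 1.89 FPKM in GJ and at 0.79, 0.84 and 0.94 FPKM in KJ. In these genes, too, the hybrids did not overlap and GJ was the higher. The remaining gene, the PR-1 gene Nitab4.5_0004861g0040, had the opposite order of means and is described with its family. No fold over the parents is given for the 4 genes, because a listed 0 carries no read count. In all, 23 members were listed at 0 in at least 1 parental library.

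The next genes by score were near 0 in the parents. Nitab4.5_0001327g0090 was listed at 0.11 FPKM in J replicate 1 and at 0 in the other parental libraries, and it was at 4.84, 23.4 and 31.6 FPKM in GJ and at 20.8, 9.51 and 6.33 FPKM in KJ. Nitab4.5_0000326g0110 did not exceed 0.11 FPKM in a parental library and was at 4.80, 12.04 and 14.6 FPKM in GJ and at 7.59, 3.72 and 2.83 FPKM in KJ. Nitab4.5_0000562g0100 was between 0 and 0.37 FPKM in the parents and at 5.33, 3.95 and 17.4 FPKM in GJ and 4.52, 7.44 and 19.0 FPKM in KJ. In all 3 genes the libraries of GJ and KJ overlapped, and within each hybrid the highest library was more than 2 times the lowest. The ID next to the last of them, Nitab4.5_0000562g0110, is annotated by the study to GH3, a family of enzymes that conjugate auxin to amino acids, and it was not a member, with a score of -2.28.

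The other members of the first 10 without an annotation were expressed in the parents as well. Nitab4.5_0011108g0010 ran from 2.09 to 7.38 FPKM in the parents and was at 50.5, 31.4 and 34.3 FPKM in GJ and at 22.1, 47.0 and 78.0 FPKM in KJ. Nitab4.5_0005582g0100 ran from 8.70 to 21.2 FPKM in the parents and was at 96.7, 79.6 and 73.3 FPKM in GJ and at 58.1, 98.2 and 155.1 FPKM in KJ. Nitab4.5_0002120g0050 ran from 0.32 to 1.54 FPKM in the parents and was at 14.7, 11.8 and 12.1 FPKM in GJ and at 5.73, 11.9 and 22.8 FPKM in KJ. These 3 genes shared an order of the libraries: GJ replicate 1 was the highest in GJ, KJ replicate 1 the lowest and KJ replicate 3 the highest in KJ, and GJ lay within the range of KJ.

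**Figure D2:**
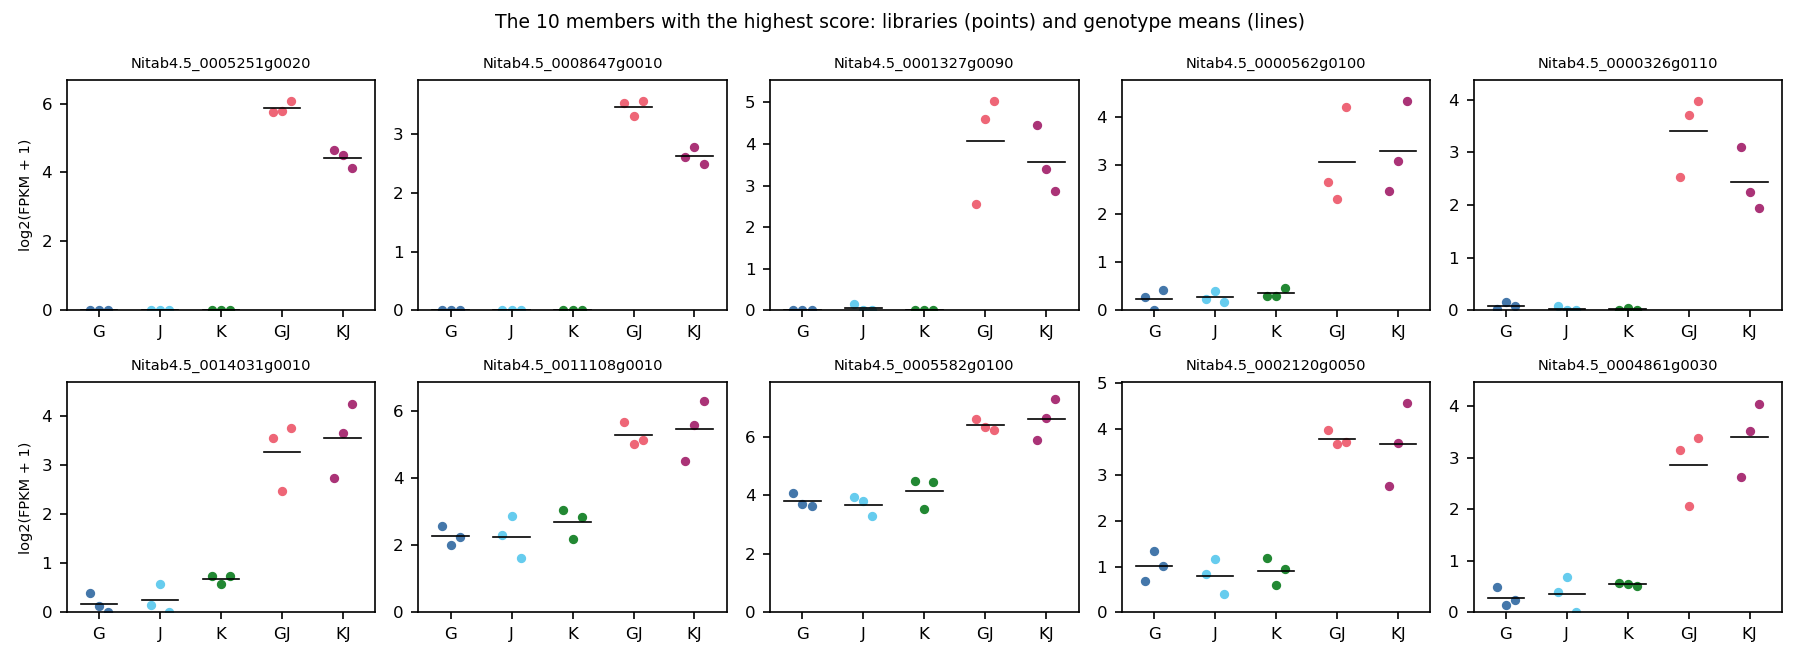
The 10 members with the highest score, 1 panel each, with log2(FPKM + 1) on the y axis and the 5 genotypes on the x axis. Points are the 3 libraries and lines their mean. All hybrid points lie above all parental points by the choice of the genes, and KJ replicate 3, the last point on the right, is the highest KJ library in 6 of the 10 panels.

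Annotations were at hand for 85 IDs of hormone signalling, root development, cell differentiation and co-expression hubs, and 12 of the members are among them. The study picked these IDs from these same libraries as overdominant upwards or downwards, so their presence here is not independent evidence of their direction. The remaining 138 members carry no annotation in the sources used here and are given by ID. PR-1 was the family with the most members. Of its 7 IDs, 6 are members and the other, Nitab4.5_0007488g0040, is at rank 808 with a score of 0.05, so that all 7 had every hybrid library above every parental library. None of the 5 GH3, 3 AUX1, 3 SAUR, 4 ETR2 or 4 ERF1/2 IDs had a positive score, where 2.69% of all tested genes had. The score asks each hybrid to exceed the mother of the other cross as well, whereas the study compared each hybrid with its own parents.

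The PR-1 genes fell into a low and a strongly expressed kind in the parents. Nitab4.5_0014031g0010 was between 0 and 0.68 FPKM in the parents, and it was at 10.9, 4.57 and 12.6 FPKM in GJ and at 5.66, 11.6 and 18.2 FPKM in KJ. Nitab4.5_0004861g0030 was between 0 and 0.60 FPKM in the parents, and it was at 7.88, 3.16 and 9.35 FPKM in GJ and at 5.16, 10.4 and 15.5 FPKM in KJ. Both genes were higher on average in KJ, with overlapping libraries. Nitab4.5_0004861g0040, the next ID to the second of them, had 0 FPKM in every parental library and was at 1.36, 0.85 and 4.76 FPKM in GJ and at 2.51, 3.47 and 9.45 FPKM in KJ. Nitab4.5_0003771g0010 did not exceed 1.22 FPKM in the parents and was at 2.82, 5.46 and 27.9 FPKM in GJ and at 19.5, 29.0 and 65.1 FPKM in KJ. Nitab4.5_0005400g0020 did not exceed 0.31 FPKM in the parents and was at 5.92, 1.18 and 18.8 FPKM in GJ and at 8.85, 14.5 and 15.7 FPKM in KJ. GJ replicate 3 stood far above the other GJ libraries in these last 3 genes.

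Nitab4.5_0001477g0080 was the PR-1 member that the parents expressed strongly, at 64.1, 48.5 and 151.8 FPKM in G, 98.9, 122.2 and 90.9 FPKM in J and 160.8, 92.1 and 124.8 FPKM in K. It was at 330.2, 350.01 and 388.2 FPKM in GJ and at 215.2, 272.9 and 299.2 FPKM in KJ. It was the only PR-1 member with a higher mean in GJ, and there the hybrids did not overlap. The PR-1 gene outside the list had a similar level, from 49.2 to 211.6 FPKM in the parents and from 218.8 to 559.6 FPKM in the hybrids. All 6 PR-1 members had their highest GJ value in replicate 3 and their highest KJ value in replicate 3, and their lowest KJ value in replicate 1. The genes of a family can be close in sequence, so reads may have been split between them in the authors' counting.

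No PR-1 member was called between the hybrids over all 15 libraries. GJ minus KJ was -1.94 ± 0.61 (SE, n = 3 and 3) in Nitab4.5_0003771g0010, the most negative log2 fold change of any member, with an adjusted p of 0.135 by limma. Without GJ replicate 3 it was -2.79 with an adjusted p of 0.0311, which passed the test. In the other PR-1 members it ran from -1.03 to 0.45, with adjusted p between 0.232 and 0.683.

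Of the 5 PP2C IDs, 2 are members, 1 more had a positive score and the others had a negative one. Nitab4.5_0000463g0070 was at 1.96, 3.90 and 3.09 FPKM in G, 2.55, 2.51 and 2.00 in J and 3.91, 2.45 and 5.02 in K. It was at 14.3, 10.8 and 10.3 FPKM in GJ and at 21.8, 16.8 and 24.2 FPKM in KJ. All KJ libraries lay above all GJ libraries, but GJ minus KJ, at -0.77 ± 0.23 (SE, n = 3 and 3), did not pass the test, with an adjusted p of 0.123 by limma. Nitab4.5_0009622g0010 ran from 2.49 to 7.70 FPKM in the parents and was at 18.3, 15.6 and 13.6 FPKM in GJ and at 17.2, 16.2 and 20.1 FPKM in KJ, where the hybrids overlapped.

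SnRK2, the kinase on which PP2C acts, had 1 member among its 4 IDs, and 2 of the 4 had all hybrid libraries below all parental libraries. The member, Nitab4.5_0005632g0010, was at 15.0, 12.4 and 12 FPKM in G, 12.1, 16.8 and 13.4 in J and 26.6, 19.2 and 25 in K. It was at 42.6, 35.7 and 38.0 FPKM in GJ and at 61.8, 53.1 and 53.8 FPKM in KJ. K lay above G and J without overlap, and KJ above GJ. The difference of K minus G was 0.79 ± 0.15 (SE, n = 3 and 3) with an adjusted p of 0.0197, under the fold limit of 1, and without the 3 libraries that stood apart it was 1.02 with an adjusted p of 0.00359. GJ minus KJ was -0.53 ± 0.15 (SE, n = 3 and 3), with an adjusted p of 0.116 by limma.

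The type A response regulator Nitab4.5_0007409g0060 was at 3.06, 1.21 and 4.40 FPKM in G, 2.19, 3.16 and 2.02 in J and 6.49, 2.98 and 6.89 in K. It was at 15.1, 13.4 and 9.75 FPKM in GJ and at 18.5, 15.4 and 18.6 FPKM in KJ. The parents overlapped, with K replicates 1 and 3 as the highest parental libraries, and all KJ libraries lay above all GJ libraries, though GJ minus KJ, at -0.44 ± 0.32 (SE, n = 3 and 3), had an adjusted p of 0.432 by limma. The single CRE1 ID, a cytokinin receptor at the head of the same pathway, had all hybrid libraries below all parental libraries and is no member.

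Among the 26 IDs annotated to cell differentiation, 2 are members, 4 had all hybrid libraries above all parental libraries and 8 had them below. Nitab4.5_0002918g0030 ran from 1.98 to 14.0 FPKM in the parents and was at 28.0, 24.2 and 26.8 FPKM in GJ and at 38.5, 32.9 and 67.7 FPKM in KJ. Nitab4.5_0008353g0010 ran from 14.8 to 50.03 FPKM in the parents and was at 75.1, 112.6 and 99.4 FPKM in GJ and at 108.2, 115.0 and 217.1 FPKM in KJ. K replicate 3 was the highest parental library in both, and KJ replicate 3 the highest hybrid library. The third gene that the study's text names for this process, Nitab4.5_0002714g0010, was at rank 773. Of 3 IDs annotated to EBF1/2, F-box proteins that target the ethylene regulator EIN3 for degradation, the highest, Nitab4.5_0000028g0350, was at rank 692. Of the 6 hub genes, the kinase Nitab4.5_0003282g0020 was at rank 154 and the other 5 had negative scores. A negative score does not mean that a hybrid lay below its own parents. For a positive score, GJ also had to exceed K and KJ had to exceed G, which are not their parents.

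**Figure D3:**
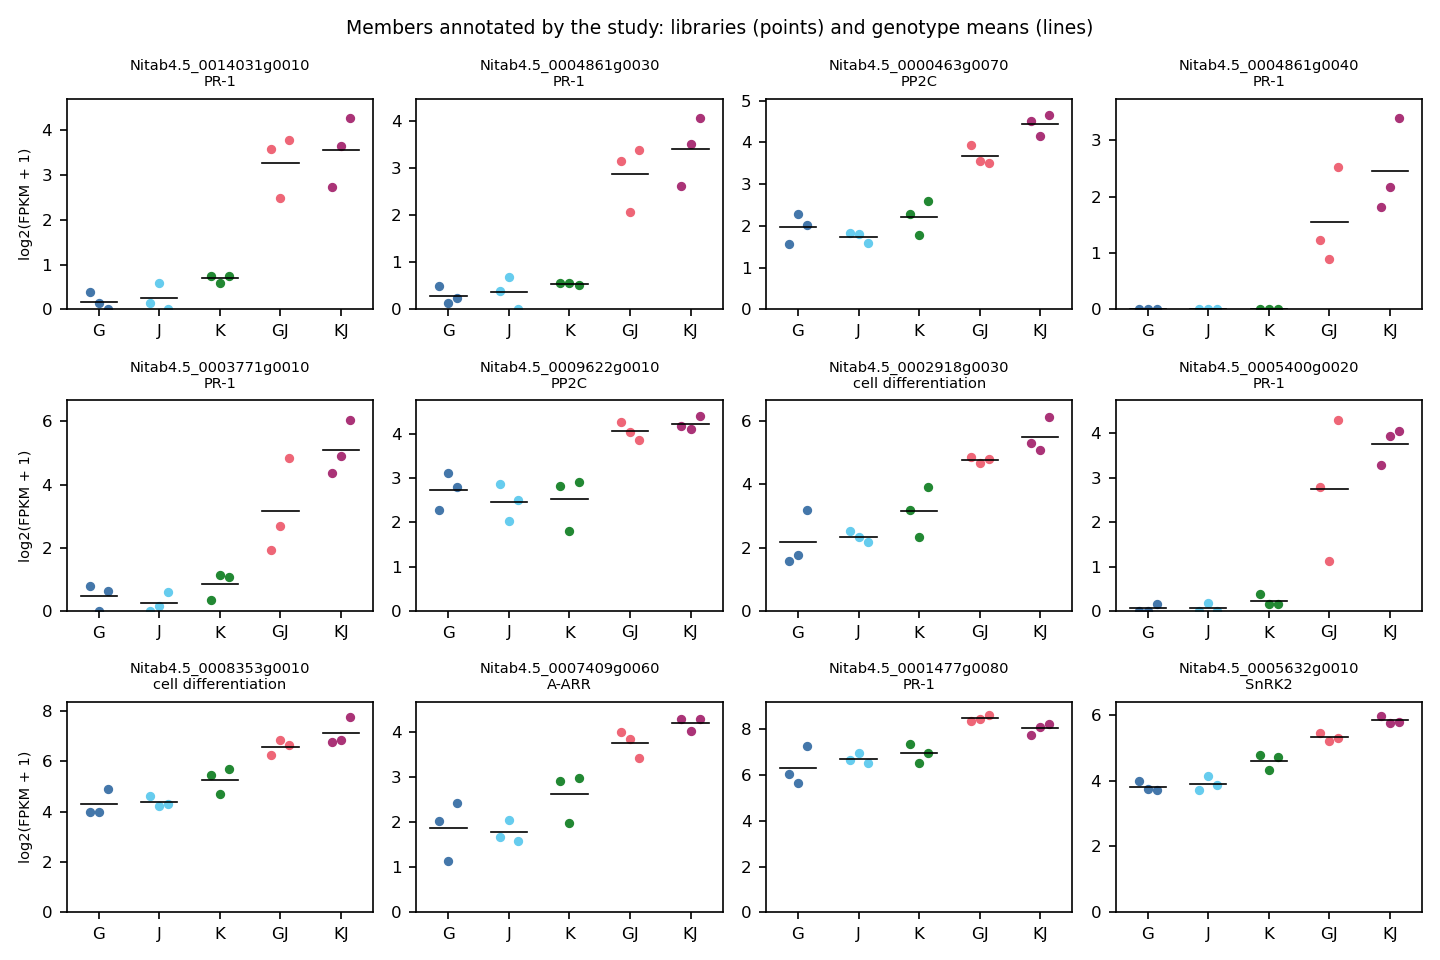
The 12 members with an annotation from the study, 1 panel each, with log2(FPKM + 1) on the y axis and the 5 genotypes on the x axis. Points are the 3 libraries and lines their mean. In the plot, 5 of the 6 PR-1 genes are near 0 in the parents, at 1.22 FPKM or less, while Nitab4.5_0001477g0080 and the PP2C, SnRK2, A-ARR and cell differentiation genes are expressed in all parents.

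The members with the highest level in the hybrids were expressed in all genotypes. Nitab4.5_0003324g0100 led, at 53.6, 90.4 and 236.2 FPKM in G, 93.0, 151.7 and 110.6 in J and 256.8, 138.6 and 196.2 in K. It was at 759.3, 945.0 and 1063 FPKM in GJ and at 432.5, 561.9 and 586.7 FPKM in KJ. GJ lay above KJ without overlap, and the difference of 0.81 ± 0.42 (SE, n = 3 and 3) on the log2 scale did not pass the test, with an adjusted p of 0.288 by limma. Nitab4.5_0001600g0120 ran from 139.8 to 282.8 FPKM in the parents and from 385.6 to 572.0 FPKM in the hybrids. Nitab4.5_0001816g0220 ran from 24.2 to 122.3 FPKM in the parents and from 211.4 to 418.5 FPKM in the hybrids. In both, GJ and KJ overlapped. The other 2 of the 5 highest were the PR-1 gene Nitab4.5_0001477g0080 and Nitab4.5_0000314g0020.

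The first number of a Nitab4.5 ID was taken as that of the assembled sequence on which a gene lies, and the 150 members had 145 different first numbers. Only 4 numbers held more than 1 member. The largest group was 0000314 with 3 members. Nitab4.5_0000314g0020 was at 114.9, 68.3 and 159.6 FPKM in G, 99.6, 141.0 and 89.5 in J, 144.0, 129.4 and 129.1 in K, 615.3, 323.7 and 273.1 in GJ and 299.2, 473.1 and 345.8 in KJ. Nitab4.5_0000314g0050 ran from 61.9 to 137.4 FPKM in the parents and from 235.1 to 460.7 FPKM in the hybrids. Nitab4.5_0000314g0010 ran from 24.8 to 59.2 FPKM in the parents and from 94.3 to 198.7 FPKM in the hybrids. GJ replicate 1 was the highest of all libraries in these 3 genes. In the same group, Nitab4.5_0000314g0070 at rank 153 and Nitab4.5_0000314g0040 at rank 469, also had a positive score, so that 5 of the 9 tested genes with this number did. Over all members, the tested IDs next to a member that are not members themselves numbered 200, and 15 of them, or 7.50%, had a positive score, against 2.30% of all tested genes that are not members. This was not tested, and neighbouring genes may be copies of each other. The members Nitab4.5_0001592g0140 and Nitab4.5_0027350g0010 had identical values in all 15 libraries, between 0.16 and 0.63 FPKM in the parents and between 2.05 and 6.08 FPKM in the hybrids, and may be a single locus listed under a pair of IDs.

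The choice used no difference between the hybrids, but it set a common floor that neither could fall below, so their comparison is not free of the choice. Among the 148 tested members, 2 were called higher in GJ than in KJ, where 0.247% of all tested genes were, and 0 were called lower, where 0.191% were. At an unadjusted p under 0.05, limma gave 9 members higher and 18 lower in GJ, where 16.2% and 4.36% of all tested genes were. Nitab4.5_0005251g0020 was higher in GJ by 1.43 ± 0.14 (SE, n = 3 and 3) on the log2 scale, with an adjusted p of 0.000174 by limma. Nitab4.5_0000519g0310 was higher by 1.20 ± 0.20 (SE, n = 3 and 3), with an adjusted p of 0.0158 by limma. It reached 1 FPKM in the 3 GJ libraries alone, so it entered the test through the genotype in which it was high, and its call is given as a description. Without the filter on low values its adjusted p was 0.0125. Both are listed at 0 in the parents, and the 9 parental zeros, which have no spread, enter the shared error and make it smaller. In a fit of the hybrid libraries alone, the SE was 0.17 for the first and 0.25 for the second. The first then had an adjusted p of 0.0412 by limma and remained called, and the second had an adjusted p of 0.116 and was not. The second also lost its call without any 1 of the KJ libraries, with adjusted p between 0.0516 and 0.0881, and with a pseudocount of 0.1, and without any 1 of the GJ libraries it dropped below the filter and could not be tested. Nitab4.5_0000326g0110, at 0.98 with an adjusted p of 0.150, was called only without GJ replicate 1, at 1.41 with an adjusted p of 0.0299. Nitab4.5_0008647g0010, at 0.84 ± 0.12 (SE, n = 3 and 3) with an adjusted p of 0.00549, missed the fold limit, and in the hybrid libraries alone its adjusted p was 0.0860.

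As a list, the members leaned the other way. The common floor kept out genes that were low in either hybrid, so the shares of the members are set beside those of all tested genes as a description and no test. GJ minus KJ was negative in 95 and positive in 53 of the tested members, with a median of -0.11, whereas 69.0% of all tested genes were positive, with a median of 0.14. The sign rested on KJ replicate 3, without which 79 members were positive and 69 negative, with a median of 0.04 against 0.16 over all genes. With median-of-ratios scaling, which moved the median of all tested genes to -0.01, the median of the members was -0.27, and 29 members were positive and 120 negative. All 3 GJ libraries lay above all 3 KJ libraries in 10 tested members, or 6.76%, where 23.8% of all tested genes did. The reverse held in 18, or 12.2%, where 7.28% of all tested genes did. In FPKM, 3 members had a GJ mean of at least 2 times the KJ mean, and 6 had a KJ mean of at least 2 times the GJ mean, of which PR-1 gave 2. The middle parent was taken halfway between the parents in log2. The departure from it in GJ, less the departure in KJ, was called higher in 2 members, where 0.344% of all tested genes were, and lower in 0, where 0.164% were. At an unadjusted p under 0.05, limma gave 13 members higher and 6 lower, where 17.4% and 4.17% of all tested genes were. The 2 were the genes already named, and since their parents are listed at 0 the differences were the same 1.43 and 1.20, with adjusted p of 0.000322 and 0.0301 by limma. The second again entered the test through GJ alone. It lost this call without G replicate 3, without J replicate 3, without K replicate 1 or without any 1 of the KJ libraries, with adjusted p from 0.0526 to 0.109, and could not be tested without any 1 of the GJ libraries. With a pseudocount of 0.1 its adjusted p was 0.117, and Nitab4.5_0010841g0020 was called in its place, at 2.06 with an adjusted p of 0.000528, against 0.74 with an adjusted p of 0.0351 at a pseudocount of 1.

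**Figure D4:**
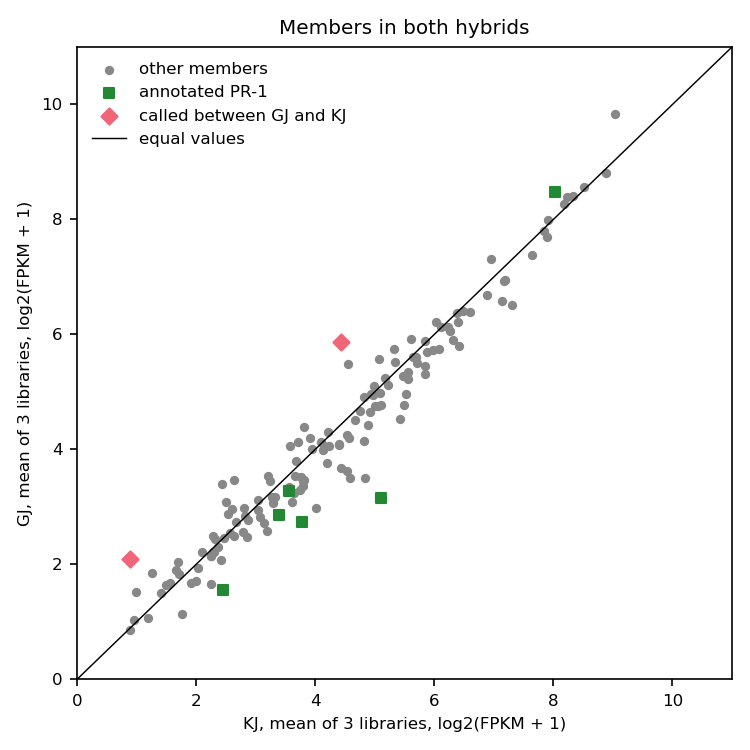
Each point is a member, with its mean over the 3 KJ libraries on the x axis and over the 3 GJ libraries on the y axis, both in log2(FPKM + 1), and the line marks equal values. The 2 genes called in the fit of 15 libraries (diamonds) lie above the line, 5 of the 6 PR-1 genes (squares) lie below it, and of the 148 tested members 95 lie below and 53 above. Of the 2, Nitab4.5_0000519g0310 passed the filter only through GJ and was not called in the hybrid libraries alone.

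The choice bounds the parental values only through the highest library, so the parents can differ from each other below it. Between J and G, 2 tested members were called, where 0.943% of all tested genes were in either direction. Nitab4.5_0002470g0010 was at 13.2, 9.51 and 8.30 FPKM in G, 4.51, 4.11 and 2.57 in J and 5.40, 4.26 and 5.71 in K, and at 43.5, 41.4 and 46.9 FPKM in GJ and 23.6, 22.7 and 20.99 in KJ. G was the highest parent and GJ the higher hybrid, both without overlap. J minus G was -1.26 ± 0.18 (SE, n = 3 and 3), with an adjusted p of 0.00180 by limma, and GJ minus KJ was 0.94 ± 0.18 (SE, n = 3 and 3), with an adjusted p of 0.0371, under the fold limit.

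Nitab4.5_0010841g0020 was listed at 0, 0.02 and 0.02 FPKM in G and was expressed in the other parents, at 1.06, 1.80 and 1.39 FPKM in J and 2.13, 1.85 and 2.27 FPKM in K. It was at 4.19, 4.13 and 3.51 FPKM in GJ and at 4.21, 4.07 and 4.12 FPKM in KJ. The hybrids were nearly alike although G, the female parent of GJ, hardly expressed the gene. J minus G was 1.24 with an adjusted p of 7.65e-05, and K minus G was 1.60 with an adjusted p of 5.77e-06, both by limma with 3 libraries each. It was the 1 member called between K and G, where 0.808% of all tested genes were. Between J and K, 0 members were called, where 0.416% of all tested genes were, and 14 had an unadjusted p under 0.05 by limma, all of them lower in J, where 5.32% of all tested genes were lower and 3.01% higher.

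K tended to be the highest parent by its mean, through replicates 1 and 3 more than replicate 2. K replicate 2 was the lowest K library for 106 of the 150 members. All 3 K libraries lay above all 6 libraries of G and J in 7 members and in 3.10% of all tested genes. K minus G was positive in 117 and negative in 26 of the tested members, and positive in 58.2% of all tested genes. Its median was 0.28 against 0.05 over all tested genes. J minus K was negative in 120 and positive in 24, and positive in 42.5% of all tested genes. Its median was -0.23 against -0.04. J minus G had a median of 0.05 against 0.01. The mean of K was the highest of the 3 parents in 105 of the 150 members and in 42.6% of all tested genes. With single libraries left out, the median of K minus G ran from 0.18 without G replicate 2 to 0.44 without K replicate 2. It was 0.20 without K replicate 1 and 0.21 without K replicate 3. The 3 parental libraries that stood apart, K replicate 2 among them, were left out together after seeing the data. Without them, the median of K minus G was 0.37 and that of J minus K -0.43. Then 6 members were called between K and G, where 1.21% of all tested genes were, and 1 between J and K, where 0.583% were. Without G replicate 3 alone, 13 members were called between K and G, of which 12 were higher in K, where 0.811% of all tested genes were called and 0.517% were higher in K. Nitab4.5_0003324g0100 and the PR-1 gene Nitab4.5_0001477g0080 were among these, at 1.44 and 1.12 on the log2 scale with adjusted p of 0.0442 and 0.0373. The highest parental value of a member, which the choice used, came from K in 87 cases, from G in 40 and from J in 23. K replicate 2 gave it in 4. No share over all genes is given for these counts.

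Within G, K, GJ and KJ, the members did not follow the libraries as other genes did. The choice used the extreme libraries, so the shares below are a description and no test. On the first principal component the parental libraries nearest the hybrids were K replicate 3 (2.35), G replicate 3 (-15.4) and K replicate 1 (-15.7). Whether the choice alone gives these shares was not tested. In J they were closer to the other genes: J replicate 2 was the highest J library for 54.0% of the members and 51.3% of all tested genes. It was the lowest for 14.0% of the members against 27.3%. K replicate 2 was the highest K library for 12 of the 150 members but for 57.6% of all tested genes, and the lowest for 106 members against 26.0%. G replicate 3 was the highest G library for 78 members against 21.97% of all tested genes. KJ replicate 3 was the highest KJ library for 113 members against 38.9%, and GJ replicate 1 the highest GJ library for 95 members against 27.6%. KJ replicate 1 gave the lowest of all hybrid values in 45 members, GJ replicate 3 in 43, GJ replicate 2 in 36, GJ replicate 1 in 11, KJ replicate 2 in 10 and KJ replicate 3 in 5. The score was taken from these lowest values, so the counts describe the choice. K replicates 1 and 3 both lay above all 6 libraries of G and J in 44 members, and in 7.14% of all tested genes, and with K replicate 2 included this held for 7 members and 3.10% of all tested genes. The median SD within a genotype on the log2 scale was larger for the members than for all tested genes in each of the 5 genotypes, at 0.34 against 0.27 in G, 0.23 against 0.16 in J, 0.31 against 0.19 in K, 0.31 against 0.17 in GJ and 0.29 against 0.20 in KJ.

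**Figure D5:**
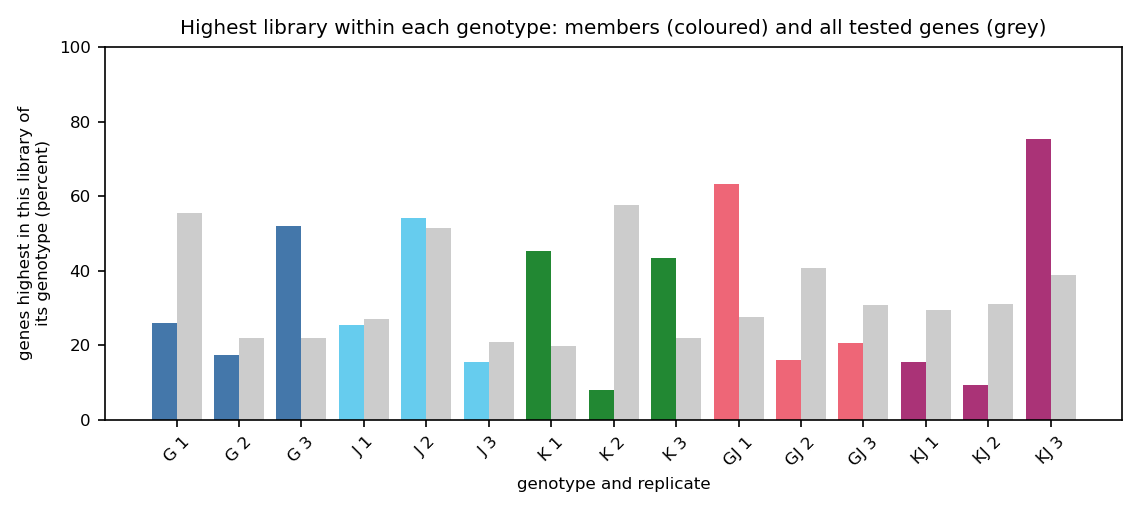
For each of the 15 libraries, the percent of genes that were highest in that library among the 3 of its genotype, for the 150 members (coloured bars) and for all tested genes (grey bars). K replicate 2 is the highest K library for 57.6% of all tested genes but for 12 of the 150 members, and KJ replicate 3 is the highest KJ library for 113 members. The members were chosen on extreme libraries, so the bars are a description and no test.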

How the data were processed

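The 15 root libraries were sequenced as paired-end reads. The authors discarded reads under 25 nt or of low quality, aligned the others to the genome of K326 and quantified genes with RSEM. The methods name Tophat2 for the mapping, and the submitters' processing notes list HISAT2, StringTie and RSEM, with no versions. The deposited values are FPKM with 2 decimals. Their sums are between 801594 and 827438, so a TPM scale with features left out is possible. No read counts were at hand, so no counting error is given.

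Values were taken as log2(FPKM + 1), which understates changes of low genes. The 37232 genes with at least 1 FPKM in 3 libraries were fitted with limma 3.58.1 (R 4.3.3), with genotype means, trend and robust options, in 1 fit of 15 libraries, and p-values (two-sided) were adjusted over all of them after Benjamini-Hochberg. Called means a log2 fold change of 1 or more in size with an adjusted p up to 0.05. The fit was tested on simulated data, in which the changed genes were expressed in all genotypes. This does not cover genes listed at 0 in the parents.

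The members and lists were chosen with earlier results of these data known. Named were the 10 members of highest score, the 5 of highest median hybrid FPKM, those annotated by the study, those called, those at the limit of the choice, those of the largest ID group and those at 0 in all parents. Annotations were partly read from pictures of the study's figures. Members with identical values were named after their values were seen. No sequences or positions for these IDs were used.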

Additional observations from a re-analysis of the deposited data

Results flagged for a closer look

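Nitab4.5_0005251g0020 departed from its middle parent by 1.43 more in GJ than in KJ on the log2 scale (adjusted p 0.000322 by limma, 3 libraries a genotype), with all 3 GJ libraries above all 3 KJ libraries and all 9 parental libraries listed at 0. With the parents at 0, this is the same difference as GJ minus KJ, and the parental zeros, which have no spread, make its error smaller. In a fit of the hybrid libraries alone, GJ minus KJ had an adjusted p of 0.0412 by limma.

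Nitab4.5_0000519g0310 departed by 1.20 more in GJ than in KJ (adjusted p 0.0301 by limma), again with 3 of 3 GJ libraries above all KJ libraries and the parents listed at 0. It reached 1 FPKM in the GJ libraries alone and so entered the test through the genotype in which it was high. This call was lost in several of the alternatives given in the next part. Here too the difference is the same as GJ minus KJ, which was not called in the hybrid libraries alone, with an adjusted p of 0.116 by limma.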

How the results depend on the processing

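Leaving out each library in turn, 102 to 148 of the 150 members were chosen again, and the members called numbered 1 to 2 between GJ and KJ, 1 to 2 for the difference in departure, 2 to 3 between G and J, 1 to 13 between G and K and 0 to 1 between K and J. Of all tested genes in these fits, 0.151% to 0.897% were called between GJ and KJ and 0.229% to 1.03% for the departure. The shares were 0.732% to 0.967% between G and J, 0.663% to 0.862% between G and K and 0.272% to 0.5% between K and J. The genes behind a count can change: without GJ replicate 1 Nitab4.5_0000326g0110 was called between GJ and KJ, and without GJ replicate 3 Nitab4.5_0003771g0010 was, while Nitab4.5_0000519g0310 was not tested in either. With genotype means in place of the extreme libraries, 87 of the 150 members were chosen again; with a pseudocount of 0.1, median-of-ratios scaling or quantile normalization, 120, 122 and 125 were. With a pseudocount of 0.1, 1 member was called between GJ and KJ, where 0.811% of all tested genes were. The adjusted p of Nitab4.5_0000519g0310 by limma was then 0.0936. With a filter at a mean of 5 FPKM, which leaves fewer members in the test, 1 was called between GJ and KJ, 1 for the departure, 1 between G and J and 0 between G and K. The shares of all genes tested there were 0.333%, 0.488%, 0.734% and 0.624% in the same order. With median-of-ratios scaling, 3 members were called between GJ and KJ, of which 2 were higher and 1 lower in GJ. Of all tested genes, 0.181% were then called higher and 0.264% lower. In the hybrid libraries alone, chosen after seeing the data, 1 was called between GJ and KJ, where 71 of the 37232 tested genes were. Without the 3 parental libraries that stood apart (G replicate 1, K replicate 2, J replicate 2), also chosen after seeing the data, 6 were called between G and K and 1 between K and J. Of all tested genes, 1.21% and 0.583% were. The replicate block left 1 member called for the departure, where 0.416% of all tested genes were, and changed no other count of members. Nitab4.5_0000519g0310 then had an adjusted p of 0.0506 by limma. The shared numbers did not pair the libraries: over 30 same-numbered pairs r ran from -0.46 to 0.55 and exceeded 0.1 in 8. Of 136 alternative values for the counts, 108 were alike within 1.5 times. Of 153 for single genes, none changed direction and 13 lost their call. The 153 leave out the settings in which a called gene fell below the filter and had no value, as Nitab4.5_0000519g0310 did without any 1 of the GJ libraries. The causes were not tested. Values carry 2 decimals and no read counts, which limits what can be said of genes listed at or near 0.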
